A study of Homo sapiens with 10 samples.

Results

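ATF3, activating transcription factor 3, was 1 of 58735 genes counted in TPC-1 RNA. TPC-1 is an established line derived from a human papillary thyroid carcinoma, with a RET/PTC1 fusion. The gene was taken by its name in both deposited count tables, and it had been selected on its log2 change in the first set of libraries. Its values in that set, and every value that includes that set, are therefore given as a description with no test. The cells had been transfected with a vector for overexpression of the long non-coding RNA PTCSC3-AS1 (OE, n = 5) or with an empty vector (EV, n = 5). Replicates 1 to 3 of each group were deposited in one table, called the first set here, and replicates 4 and 5 in another, called the second set. The sources used here do not give what separates the sets, the promoter of the vectors, the time after transfection, or whether the replicates came from separate cultures. Any p-value here sets a difference against the spread among these libraries alone, part of which may be technical. The level of PTCSC3-AS1 itself was not analysed here, so the OE labels were not checked against it.

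ATF3 belongs to the ATF/CREB family of basic leucine zipper (bZIP) transcription factors, which bind DNA as pairs. It is scarce in many resting cells and rises quickly after stress. One route runs through kinases that phosphorylate the translation factor eIF2-alpha and so favour translation of ATF4, which then acts on ATF3 and other genes of the integrated stress response. DNA damage through p53, TGF-beta through SMAD proteins, and the stress-activated MAP kinases JNK and p38 are other known routes. The protein pairs with itself or with partners such as the JUN proteins, and it can repress or activate genes, its own promoter included.

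The gene, ENSG00000162772, lies on the plus strand of chromosome 1 at 212565334 to 212620777 in hg38, and no other annotated gene overlaps it. GENCODE release 29 lists 11 transcripts from 7 start positions, and the counts were summed per gene, so starts and isoforms were not told apart. RefSeq (GRCh38.p14) gives 2 promoter windows, each with 250 bases before and 50 bases after a start site. They are shown because ATF4, CREB and AP-1 proteins are known to reach ATF3 through promoter elements. These 2 windows do not cover every start of the gene and need not hold those elements. Capitals mark the matches found to 5 motifs searched on both strands. The first line is chr1:212565157-212565456 and the second is chr1:212614768-212615067, both on the plus strand.
ATF3 upstream start: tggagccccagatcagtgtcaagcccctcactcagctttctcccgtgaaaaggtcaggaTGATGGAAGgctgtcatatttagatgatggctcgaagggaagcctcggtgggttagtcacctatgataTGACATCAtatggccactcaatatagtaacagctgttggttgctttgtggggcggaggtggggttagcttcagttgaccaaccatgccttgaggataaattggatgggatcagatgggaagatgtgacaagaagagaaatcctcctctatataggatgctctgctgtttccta
ATF3 downstream start: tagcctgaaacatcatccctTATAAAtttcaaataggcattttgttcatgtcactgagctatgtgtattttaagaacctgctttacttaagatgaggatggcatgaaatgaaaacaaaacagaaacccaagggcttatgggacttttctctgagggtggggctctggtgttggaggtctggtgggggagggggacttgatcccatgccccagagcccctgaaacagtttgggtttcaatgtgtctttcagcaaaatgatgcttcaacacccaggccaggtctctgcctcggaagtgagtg
The upstream window held TGACATCA, a variant of the cAMP response element, 123 bases before the start site, and 2.61% of all 35116 RefSeq windows held it. It also held TGATGGAAG, a match to the C/EBP-ATF response element through which ATF4 acts, searched as TGATGNAAN and present in 3.61% of windows. This match began 191 bases before the start site and did not overlap the other. The downstream window held the TATA box letters TATAAA, 230 bases before its start site, which 11.5% of windows held. The letters of the cAMP response element TGACGTCA (1.85% of windows) and of the AP-1 element TGANTCA (7.71%) were in neither window. Of the 11 GENCODE transcripts, 6 start outside both windows, and the promoters of those starts were not searched. A match here is a description of letters and not a bound site.

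The 10 libraries held 15761474 to 18066559 counts in genes and 20630 to 22029 detected genes. The thyroid factor PAX8 was at 358 to 478 CPM, counts scaled to a common library size, in all of them, and NKX2-1 and TSHR had 0 counts in every library. Markers of leukocytes summed to 0.283 to 1.48 CPM, with CD3E at 0. The 12 thyroid markers summed to 861 to 871 CPM in OE and 864 to 870 CPM in EV of the second set, and to 842 to 888 CPM in OE and 731 to 802 CPM in EV of the first. The 4 fibroblast markers, of which COL1A2 and DCN were at 0, summed to 2.50 to 3.73 CPM in OE and 2.87 to 3.53 CPM in EV of the second set. They summed to 3.92 to 4.84 CPM in OE and 2.20 to 2.72 CPM in EV of the first. The part of these markers in the first-set ATF3 values was not tested. In these bulk libraries, fewer cells with a transcript and less of it per cell cannot be told apart. EV replicate 2 stood apart from the other EV libraries of the first set, and its effect on the calls of each gene list in that set is given below. Mitochondrial transcripts made up 4.17 ± 0.0995% of counts in OE and 4.63 ± 0.254% in EV of the second set (SD, n = 2). They made up 4.39 ± 0.106% in OE and 4.94 ± 0.238% in EV of the first set (SD, n = 3). This share was lower in OE in both sets, whereas ATF3 differed in direction between them, and its part in the ATF3 values was not tested.

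ATF3 was lower in OE than in EV in the first set. OE replicates 1, 2 and 3 had 177, 192 and 224 counts of ATF3, against 524, 518 and 509 counts in EV replicates 1, 2 and 3. Scaled for library size by the trimmed mean of M-values (TMM), ATF3 stood at 10.1, 10.7 and 12.7 CPM in OE and at 29.7, 33.3 and 31.1 CPM in EV. The groups did not overlap, and the highest OE library lay below the lowest EV library by more than the counting error of either. The exact Poisson 95% intervals were 11.1 to 14.5 CPM for OE replicate 3 and 27.2 to 32.3 CPM for EV replicate 1. Group means of ATF3 were 11.2 ± 1.40 CPM in OE and 31.3 ± 1.81 CPM in EV (SD, n = 3). The log2 change of ATF3 (OE over EV) in the edgeR fit was -1.49 (SE 0.13), which is 2.81-fold lower in OE. The median of all 14340 genes tested was -0.01. Of those genes, 27 had a change further below 0 than ATF3, and 3 of the 12171 with a mean log2 CPM of at least 1 did. All OE libraries lay below all EV libraries for 8.32% of the genes tested in this set.

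The second set did not repeat this order. OE replicates 4 and 5 had 258 and 201 counts of ATF3, against 151 and 155 counts in EV replicates 4 and 5. The levels were 15.3 and 11.7 CPM in OE and 8.59 and 9.88 CPM in EV. Both OE libraries lay above both EV libraries, as they did for 12.7% of the genes tested in this set. The Poisson intervals of OE replicate 5 (10.1 to 13.4 CPM) and EV replicate 5 (8.39 to 11.6 CPM) overlapped. Group means were 13.5 ± 2.55 CPM in OE and 9.24 ± 0.911 CPM in EV (SD, n = 2). The log2 change of ATF3 was 0.55 (SE 0.20), a 1.46-fold higher level in OE with a 95% interval of 1.06-fold to 2.01-fold. Its unadjusted p was 0.0275 in edgeR's quasi-likelihood test, and the Benjamini-Hochberg adjusted p over 14419 genes was 0.9998, so ATF3 did not pass the threshold of 0.05. No gene passed it in this set (0%), while DESeq2 called 1, and 158 genes had an unadjusted p under 0.05 in edgeR, among which ATF3 ranked 50. Without OE replicate 4, the log2 change of ATF3 was 0.34. In the authors' deposited table, which compared single libraries by number, ATF3 had a log2 change of 0.83 for replicate 4 (p = 0.0607) and 0.25 for replicate 5 (p = 0.589), with an adjusted p of 1 for each. Those p-values compare 2 libraries and not the conditions.

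**Figure D1:**
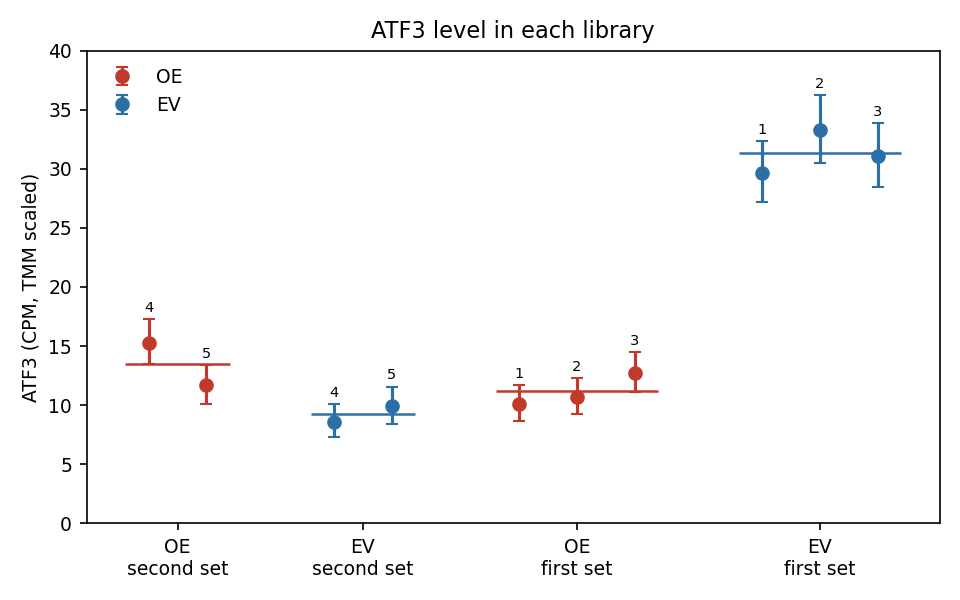
ATF3 in TMM-scaled CPM (y axis) in each of the 10 libraries, with OE in red left of EV in blue within each set; bars are exact Poisson 95% intervals of the counts, horizontal lines are group means and small numbers are replicate numbers. The 3 EV libraries of the first set sit at 29.7 to 33.3 CPM, and the other 7 libraries sit between 8.59 and 15.3 CPM.

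The levels split unevenly over the libraries. The 3 EV libraries of the first set held 29.7 to 33.3 CPM of ATF3, and the other 7 libraries, OE and EV alike, held 8.59 to 15.3 CPM. Between the sets, ATF3 in OE cells averaged 13.5 CPM in the second set and 11.2 CPM in the first, a ratio of 1.21. ATF3 in EV cells averaged 9.24 CPM in the second set and 31.3 CPM in the first, a ratio of 0.295. The larger step between the sets lay in the EV libraries. The log2 change of ATF3 in the second set minus that in the first was 2.04 (SE 0.23). With set as a term, the log2 change over all 10 libraries was -0.72 (SE 0.29). That value averages changes of opposite sign and describes neither set.

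Among the 13947 genes tested in both sets, 149 (1.07%) had the order of ATF3, with all OE libraries below all EV libraries in the first set and above them in the second. The opposite order was seen for 103 genes (0.739%), OE below EV in both sets for 145 (1.04%), and OE above EV in both sets for 169 (1.21%). In the fit of the difference between sets, 1 of 15404 genes (0.00649%) had an adjusted p under 0.05, and that gene was ATF3. The first set, which enters that fit, had served to pick ATF3, so nothing is read from this call.

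**Figure D2:**
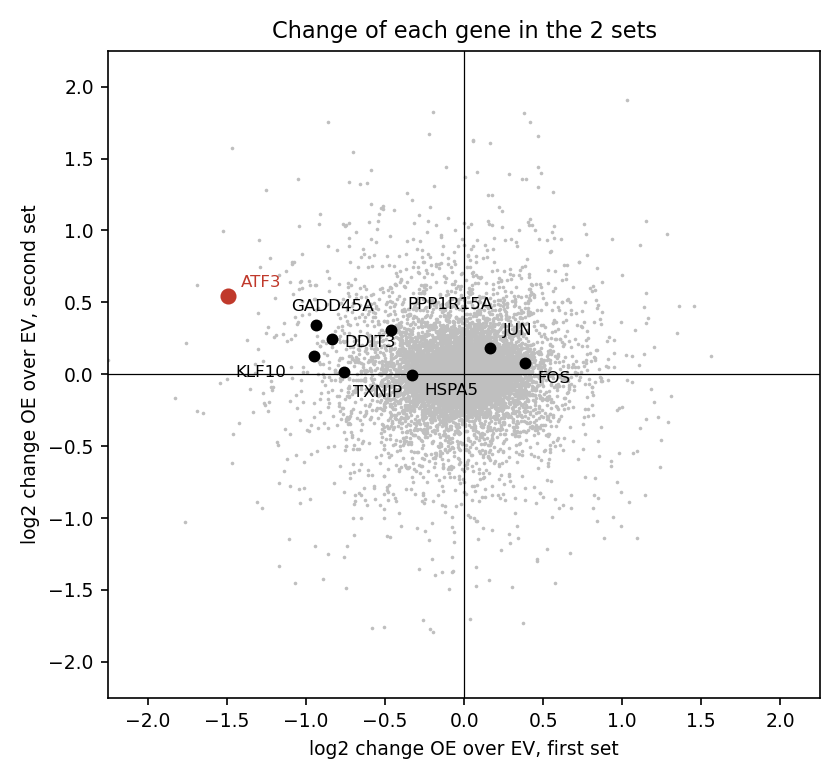
Log2 change OE over EV of the genes tested in both sets, in the first set on the x axis and in the second on the y axis; each grey point is a gene, and 9 of 13947 lie outside the plotted range. ATF3, in red, lies at -1.49 on the x axis and 0.55 on the y axis, and the 8 labelled genes of the stress and early response lie nearer to the centre.

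ATF3 was among the less abundant of the 29 bZIP genes compared here, which were ATF3 and a chosen list of 28 partners and relatives. Other bZIP genes were not ranked. Per kilobase of gene length, ATF3 averaged 4.04 CPM per kb over the 4 groups and ranked 23 of these 29. Individual libraries ranged between 2.13 and 8.23 CPM per kb. FOSL1, the FRA-1 protein that pairs with JUN proteins in AP-1, led at 288 CPM per kb. ATF4 followed at 211, CEBPB at 112 and JUN at 110 CPM per kb. The neighbours in this order were CREB1, the cAMP-responsive factor, at 4.82 CPM per kb and JDP2, a JUN dimerization partner, at 3.65 CPM per kb. The library ranges of both (4.28 to 5.90 and 2.90 to 4.26 CPM per kb) lay inside that of ATF3, so this order of neighbours did not exceed the spread. The place of ATF3 depended on the group, at rank 23 in OE and rank 25 in EV of the second set, and at rank 24 in OE and rank 21 in EV of the first. BATF, at the bottom, had 0 counts in every library.

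**Figure D3:**
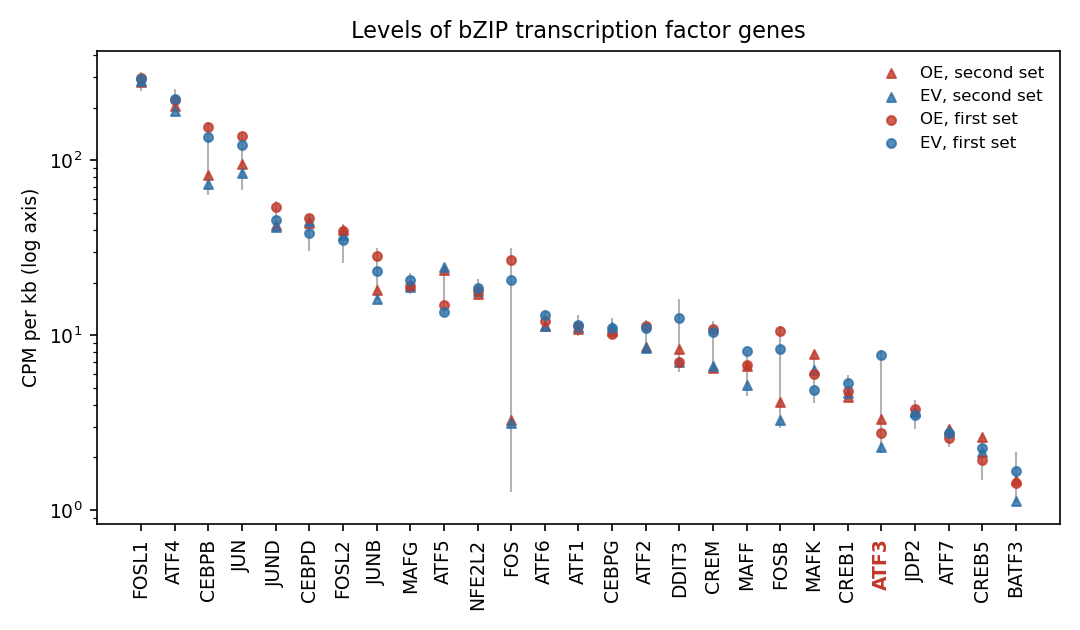
Level in CPM per kb (log axis) of the 27 compared bZIP genes with a mean above 0.5 CPM per kb. There is 1 symbol for the mean of each group and set, and grey lines give the range of the 10 libraries. ATF3 is spread more widely than its neighbours CREB1 and JDP2, at 3.34 in OE and 2.29 in EV of the second set and at 2.76 in OE and 7.76 in EV of the first.

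A list of 21 tested genes of the eIF2-alpha and MAP kinase routes held kinases, sensors and other genes such as ATF4, HSPA5 and PPP1R15A. None of them passed the threshold in edgeR or DESeq2 in either set or over both sets. Over both sets 0 of 14217 genes (0%) passed in edgeR, 812 had an unadjusted p under 0.05, and DESeq2 called 6. Of all 14340 genes, 5 (0.0349%) passed it in the first set in edgeR, and DESeq2 called 76. Without EV replicate 2, edgeR called 7 of the 21 in the first set, 6 of them lower, beside 1578 of 14769 genes (682 lower). The median log2 change of these 21 genes was -0.00 in the second set and -0.07 in the first, beside 0.00 and -0.01 over all genes. ATF4, the factor through which the eIF2-alpha route reaches ATF3, was at 523 and 504 CPM in OE and 482 and 482 CPM in EV of the second set. ATF4 was at 597, 567 and 511 CPM in OE and 554, 641 and 499 CPM in EV of the first set, where the groups overlapped. Its log2 change was 0.09 (SE 0.07) in the second set and -0.02 (SE 0.11) in the first. EIF2AK3, the kinase PERK that senses unfolded proteins in the endoplasmic reticulum, had changes of -0.04 in the second set and -0.16 in the first. EIF2AK4, the amino acid sensor GCN2, had -0.04 in the second set and -0.07 in the first. HSPA5, the chaperone BiP, had a change of -0.00 (SE 0.15) in the second set and -0.33 (SE 0.09) in the first. MAP2K6, a kinase that activates p38, had changes of -0.23 in the second set and 0.59 (SE 0.14) in the first, the opposite order to ATF3. MAPK8, a JNK kinase, had changes of -0.04 (SE 0.10) in the second set and -0.23 (SE 0.09) in the first. Its OE libraries lay below its EV libraries in the first set. In edgeR's test of that set, 3 of the 21 were lower and 1 higher at an unadjusted p under 0.05. Of all genes, 4.47% were lower and 4.37% higher at that p. PPP1R15A, the GADD34 subunit that turns off eIF2-alpha phosphorylation, was at 87.8 and 96.4 CPM in OE and 60.8 and 88.2 CPM in EV of the second set. It was at 107, 97.3 and 107 CPM in OE and 151, 155 and 123 CPM in EV of the first set. The PPP1R15A libraries had the same order as ATF3 in the first set, while in the second OE replicate 4 lay just below EV replicate 5.

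Of the ATF4 targets, 30 were tested and none passed the threshold in edgeR in either set. DESeq2 called DDIT3 and SLC7A11 lower in the first set, beside 52 lower of all 14340 genes. Without EV replicate 2, edgeR called 4 list members in that set, 3 of them lower, beside 1578 of 14769 genes (682 lower). In the second set 7 of the 30 had a log2 change below 0, beside 49.2% of all genes. In the first, 22 of the 30 did, beside 52.3% of all genes. The list medians were 0.05 in the second set and -0.10 in the first. DDIT3, the CHOP factor, which is both an ATF4 target and a bZIP partner of ATF3, had the order of ATF3 in both sets. Its levels were 12 and 9.82 CPM in OE and 9.39 and 8.99 CPM in EV of the second set. DDIT3 stood at 10.9, 8.05 and 8.76 CPM in OE and at 12.7, 21.1 and 15.6 CPM in EV of the first set. Its log2 change was 0.25 (SE 0.18) in the second set and -0.83 (SE 0.20) in the first. SLC7A11, the cystine transporter, had changes of 0.01 in the second set and -0.63 (SE 0.13) in the first. TRIB3, a pseudokinase that restrains ATF4, had 0.07 in the second set and 0.09 in the first, and CHAC1, which degrades glutathione, had 0.28 and 0.06. ASNS, asparagine synthetase, had 0.46 in the second set and -0.13 in the first. DDIT4, the mTOR inhibitor REDD1, had changes of 0.00 in the second set and 0.39 in the first.

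The dimer partners and relatives of ATF3 were 28 genes, of which 26 were tested and none passed the threshold in edgeR in either set. DESeq2 called 1 of them, DDIT3, lower in the first set, beside 52 lower of all 14340 genes. Without EV replicate 2, edgeR called 8 list members in that set, 6 of them higher, beside 1578 of 14769 genes (896 higher). The median log2 change of the list was 0.04 in the second set and 0.02 in the first. JUN, a frequent partner, had 293 and 385 CPM in OE and 240 and 357 CPM in EV of the second set. JUN had 485, 455 and 517 CPM in OE and 450, 419 and 428 CPM in EV of the first set, so it did not share the low OE level of ATF3. FOS separated the sets more than the groups. It had 4.21 and 17.1 CPM in OE and 4.10 and 16.2 CPM in EV of the second set, and 81.7, 103 and 78.6 CPM in OE and 59.5, 81.0 and 60.8 CPM in EV of the first. Within the second set FOS was lower in replicate 4 than in replicate 5 of both groups, and EGR1 likewise had 3.32 and 19.9 CPM in OE and 4.38 and 14.7 CPM in EV. ATF3 did not follow that split, since its OE level was higher in replicate 4 and its EV level higher in replicate 5. MAFF and MAFK, small MAF proteins, had changes of 0.36 and 0.32 in the second set and -0.25 and 0.30 in the first. FOSB and JUNB, of the FOS and JUN families, had changes of 0.34 and 0.17 in the second set and 0.35 and 0.28 in the first. Of the 26 tested, 1 (MAFK) had an unadjusted p under 0.05 in edgeR's quasi-likelihood test of the second set, beside 1.1% of all genes. At that p in the first set, 3 were higher (FOS, FOSB and JUNB), beside 4.37% of all genes. In the same test 2 were lower (DDIT3 and MAFF), beside 4.47%.

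Genes reported in other work as regulated by ATF3 gave 18 tested of 20, none past the threshold in edgeR in either set. DESeq2 called 3 of them lower in the first set, DDIT3, GADD45A and SLC7A11, beside 52 lower of all 14340 genes. Without EV replicate 2, edgeR called 6 list members in that set, 5 of them lower, beside 1578 of 14769 genes (682 lower). The median change of the list was 0.06 in the second set and -0.07 in the first. Below 0 were 3 of 18 in the second set and 10 of 18 in the first. CCND1, cyclin D1, had changes of 0.03 in the second set and 0.00 in the first. ID1, an inhibitor of differentiation factors, had 0.02 in the second set and -0.13 in the first, and SNAI1, the Snail repressor of E-cadherin, had 0.12 and -0.71. IL6, an inflammatory cytokine, had 0.30 in the second set and -0.50 in the first. GADD45A, a growth arrest gene induced by DNA damage, was at 81.9 and 99.9 CPM in OE and 65.6 and 78.1 CPM in EV of the second set. The first set had GADD45A at 97.3, 80.0 and 94.3 CPM in OE and at 160, 203 and 155 CPM in EV. Its groups did not overlap in either set and had the order of ATF3 in both. Its log2 change was 0.34 (SE 0.13) in the second set and -0.93 (SE 0.13) in the first, where the edgeR adjusted p was 0.0712.

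Of 33 early-response genes tested in the first set, KLF10 and TXNIP fell in edgeR's test, beside 0.0349% of all genes, and none of 32 passed in the second set. DESeq2 called 6 of this list lower in the first set, beside 52 lower of all 14340 genes. They were ARRDC3, BTG2, GADD45A and GADD45B besides KLF10 and TXNIP. The list median was 0.13 in the second set, with 27 of 32 genes above 0, and -0.16 in the first, with 20 of 33 below 0. KLF10, a zinc finger factor induced by TGF-beta, was at 102 and 92.1 CPM in OE and 85.6 and 91.9 CPM in EV of the second set. KLF10 in the first set was at 73.7, 79.7 and 89.4 CPM in OE and 157, 163 and 148 CPM in EV, a log2 change of -0.95 (SE 0.10, edgeR adjusted p = 0.0198). TXNIP, the thioredoxin inhibitor that responds to glucose, was at 72.8 and 82.6 CPM in OE and 77.5 and 76.4 CPM in EV of the second set. TXNIP in the first set was at 72.8, 73.9 and 69.3 CPM in OE and 127, 115 and 123 CPM in EV, a log2 change of -0.76 (SE 0.09, edgeR adjusted p = 0.0332). Neither gene was called when EV replicate 1, EV replicate 3 or any 1 of the 3 OE libraries was left out, which left 0 members of all lists called. Without EV replicate 2, 41 members of the lists passed in the first set, 28 of them lower in OE. In that fit 1578 of 14769 genes passed, 682 of them lower. Of the early-response list, 12 passed in that fit, 8 of them lower. BTG2, an antiproliferative gene, had a log2 change of 0.23 in the second set and -0.75 in the first, and GADD45B, a relative of GADD45A, had 0.17 and -0.62.

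None of the 21 p53 genes passed the threshold in edgeR in either set. DESeq2 called 5 of them lower in the first set (BTG2, FAS, GADD45A, MDM2 and SESN1), beside 52 lower of all 14340 genes. Without EV replicate 2, edgeR called 10 list members in that set, all lower, beside 1578 of 14769 genes (682 lower). In the second set 14 of 21 had a change above 0 with a median of 0.08, and in the first 18 of 21 had a change below 0 with a median of -0.23. Lower in OE of the first set at an unadjusted p under 0.05 in edgeR's test were 10 of 21, beside 4.47% of all genes. MDM2, the ubiquitin ligase of p53, had changes of -0.10 in the second set and -0.62 (SE 0.10) in the first. FAS, a death receptor, had 0.18 in the second set and -0.46 in the first, and its libraries had the order of ATF3 in both. Of 19 TGF-beta and SMAD genes, KLF10 was the member that fell in the first set in edgeR's test, beside 0.0349% of all genes. That is the same call as in the early-response list. DESeq2 called SKIL lower too, beside 52 lower of all 14340 genes. So did edgeR without EV replicate 2, beside 682 lower of 14769 genes. The medians of this list were -0.02 in the second set and -0.09 in the first. SKIL, a SMAD repressor induced by TGF-beta, had changes of -0.04 in the second set and -0.63 in the first.

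**Figure D4:**
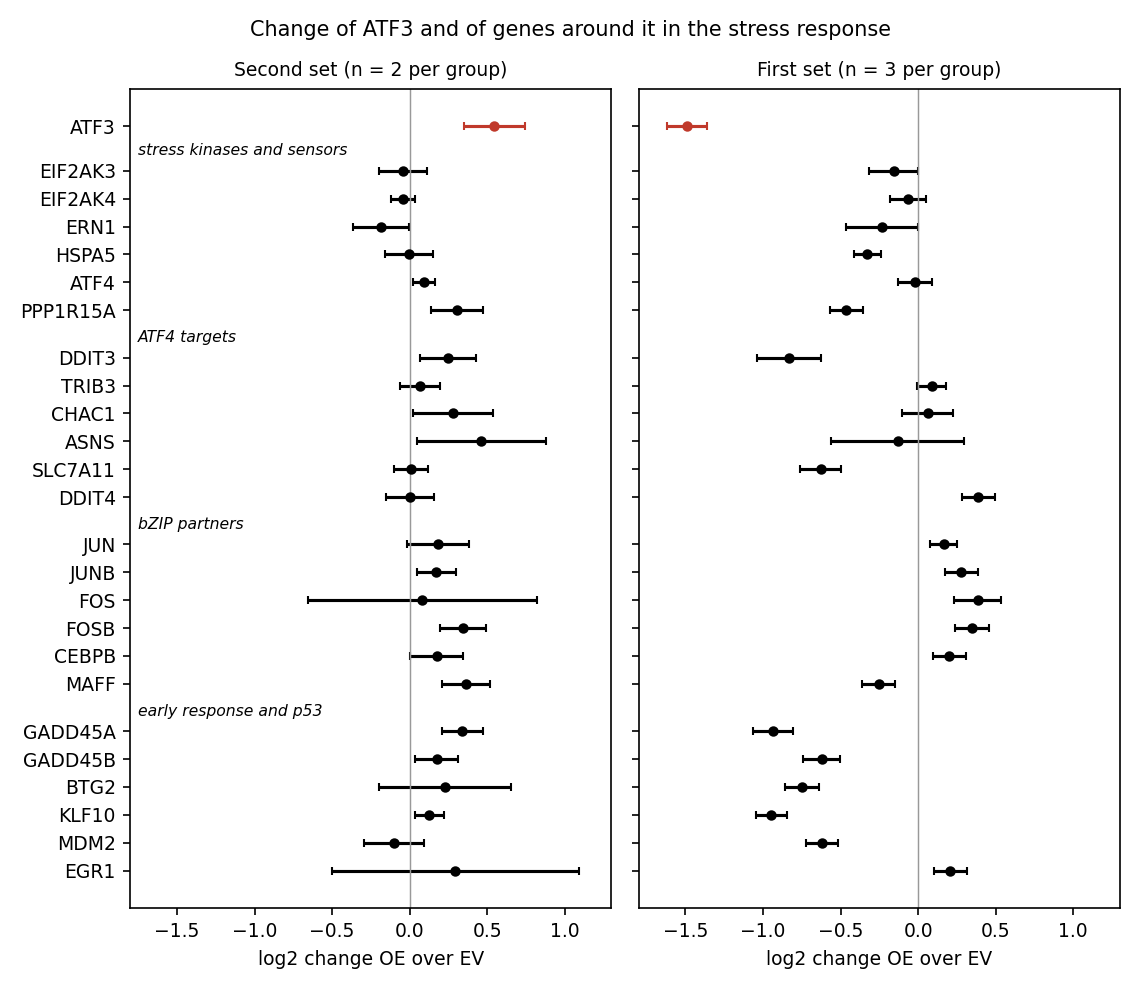
Log2 change OE over EV with its SE (bars) for ATF3, in red, and 24 genes of the lists, picked after their values were seen, in the second set (left) and the first set (right). In the first set ATF3 lies at -1.49, further from 0 than KLF10 at -0.95 and GADD45A at -0.93, while ATF4 at -0.02 and TRIB3 at 0.09 lie near 0.

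The genes beside ATF3 on chromosome 1 had median changes near 0 in both sets. Within 500 kb of either end the tables held 32 genes, of which 12 were tested and none passed the threshold, with or without EV replicate 2. Their median log2 change was -0.04 in the second set and -0.03 in the first. In the first set none of the 12 had an unadjusted p under 0.05 in edgeR's test, where 8.84% of all genes had one. For 12 genes these counts are near the shares over all genes, so nothing is read from them. Below 0 were 8 of the 12 in the second set and 7 in the first. BATF3, a bZIP gene in this interval, had the signs of ATF3, at 0.40 (SE 0.27) in the second set and -0.21 (SE 0.25) in the first. TMEM206, a chloride channel gene in this interval, had the lowest change there in the first set, -0.23 (SE 0.12).

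The genes that followed ATF3 most closely were ranked by Pearson's r of log2 CPM over the 10 libraries, among 12091 genes. The points share library scaling and the split between the 3 EV libraries of the first set and the rest, so r describes this pattern and carries no p. KLF10 came first (r = 0.96), followed by USPL1, a SUMO protease (0.95), and ZNF615, a zinc finger gene (0.94). GADD45B (0.94), GADD45A (0.93), ZNF383, another zinc finger gene (0.93), PGBD1, a gene derived from a piggyBac transposase (0.93), TIPARP, a mono-ADP-ribosyltransferase (0.93), CCDC32 (0.93) and PRKAB2, a regulatory subunit of AMPK (0.93), completed the first 10. Over all ranked genes the median r was 0.0058, and 19 genes had r above 0.9. Spearman's rho of the 10 with ATF3 was 0.661 to 0.903. Without EV replicates 2 and 3, the libraries farthest from the median of ATF3, r was 0.842 to 0.951. The first 10 places were less stable than these values, since 1 of the 10 genes stayed in them by Spearman's rho and 3 without EV replicate 2. Without all 3 EV libraries of the first set, r over the other 7 libraries was 0.0848 for PRKAB2 and up to 0.768 for ZNF615. For these genes the likeness to ATF3 therefore rested in large part on those 3 libraries.

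Taking off the mean of each set left KLF10 first (r = 0.98), before SFPQ, a splicing factor (0.97), and HIST1H2BG, a histone gene (0.94). KLF10, USPL1 and ZNF615 were the 3 genes shared by both rankings. The other genes of this ranking were HIST1H2AC, WDR66, MYC, ZBTB49 and RRP15. Without that step, r of its 10 genes with ATF3 over the 10 libraries ran from 0.069 (MYC) to 0.96 (KLF10). With the mean of each group within each set taken off, COIL, the Cajal body protein coilin, led (0.97), and 0 of the 10 genes first ranked over the 10 libraries were among its 10. EIF2AK1, the heme-regulated eIF2-alpha kinase, was among these 10 (0.94), with TMEM233, BEND7, ISPD, ZNF853, GID4 and TRIB1. The pseudogenes TCEA1P2 and AC078819.1 were the others, and their counts are uncertain where they share reads with a parent gene. EIF2AK1 had an r of -0.15 with ATF3 over the 10 libraries, and log2 changes of -0.04 in the second set and -0.05 in the first. The 0.94 therefore describes only differences among replicates of a group within a set. KLF10 kept an r of 0.88 with ATF3 after that step. At the other end, FLOT2, a membrane raft protein (-0.95), SEMA4C, a semaphorin (-0.95), PYGO2, a Wnt coactivator (-0.92), CAPN1, a calpain (-0.92), and SREBF1, a regulator of lipid synthesis (-0.92), ran opposite to ATF3. Of the 10 genes closest over the 10 libraries, 7 had a RefSeq promoter window, while KLF10, USPL1 and GADD45A had none. No window of the 7 held the cAMP response element, its variant, the AP-1 element or the C/EBP-ATF response element. Of all windows, only 1.85%, 2.61%, 7.71% and 3.61% held these, so nothing is read from their absence. The window of GADD45B held the TATA box letters.

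**Figure D5:**
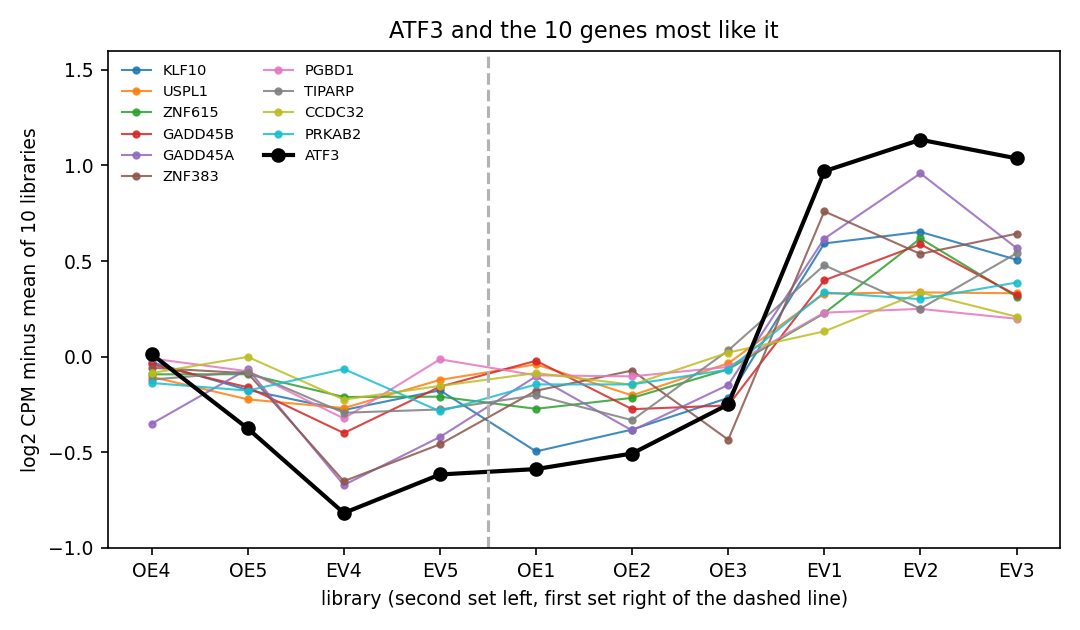
Log2 CPM of ATF3 (black) and of the 10 genes with the highest r, each minus its mean over the 10 libraries (y axis), by library (x axis, OE before EV within each set). At the 3 EV libraries of the first set every line lies above 0 and ATF3 is the highest, while in the other 7 libraries the lines lie near or below 0.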

How the data were processed

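Per the labels' protocols, the 10 libraries came from total RNA of TPC-1 cells, were prepared with a NEBNext Ultra RNA kit and were read in paired ends. Whole-number counts per gene, not normalized, were deposited by the authors in 2 tables, one for each set. The submitters' processing notes name CASAVA 1.8, fastp, HISAT2 2.0.5, featureCounts 1.5.0-p3, DESeq2 1.20.0 and the build hg38. The sources used here do not give whether counting used strand. Gene length in bases, a further deposited column, served for levels per kilobase. The log2 fold changes and p-values deposited by the authors for single pairs of libraries were used where they are named. A further 14 columns of per-library values were not used.

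The tables were joined by gene ID. All 58735 IDs were found in GENCODE release 29 with the same start and end. Tests were run in R 4.3.3 with edgeR 4.0.16 (TMM scaling, filterByExpr, glmQLFit, glmQLFTest) and Benjamini-Hochberg adjustment over all genes tested, with a threshold of 0.05. The scripts were tested on simulated data. Log2 CPM used a prior count of 2. Intervals are exact Poisson 95% intervals and cover counting error only. A floor of 3 counts corresponded to 0.166 to 0.190 CPM. Replicates of a group within a set differed beyond sampling noise, with a chi-square per degree of freedom of 4.30 to 45.2. ATF3 and the gene lists were chosen with earlier results of these data known. Besides ATF3, the named genes were those with the highest and lowest r, list members called, the 4 members of each list with the lowest p in each set, and its neighbours among bZIP genes. Other list members are named for their known role. Alternatives were RLE scaling, no filter on low counts, DESeq2 1.42.0, voom in limma 3.58.1, a replicate block, a shared dispersion, a smaller prior count, rank correlation, each library left out and, chosen after seeing the data, GC offsets. Tables and plots were made with Python 3.11.15, pandas 2.3.3 and matplotlib 3.10.9.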

Additional observations from a re-analysis of the deposited data

Results flagged for a closer look

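Among 76 named genes, 23 had all OE libraries on one side of all EV libraries in the first set and on the other side in the second. Over all 13947 genes tested in both sets, 1.07% were lower and then higher in OE in this way and 0.739% higher and then lower. Of the 23, 17 had been named for a high or low r with ATF3, so their order follows in part from how they were chosen. ATF3, picked on the first set, is set aside here. None of the others had an adjusted p under 0.05 in edgeR's test of the difference between the sets. The log2 change in the second set minus that in the first was 2.04 for ATF3. Among the genes ranked by likeness over the 10 libraries it was 1.07 for KLF10, 0.69 for ZNF615, 1.27 for GADD45A, 1.35 for ZNF383, 0.77 for TIPARP and 0.44 for CCDC32. It was -0.25 for FLOT2, -0.46 for SEMA4C, -0.34 for PYGO2 and -0.27 for CAPN1, the genes that ran opposite to ATF3. Among the genes ranked after set means were taken off it was 0.18 for SFPQ, 2.04 for HIST1H2BG, 1.0 for HIST1H2AC, 0.69 for WDR66, 0.24 for MYC, 0.43 for ZBTB49 and 0.41 for RRP15. Among the list members it was 1.08 for DDIT3, 0.61 for MAFF, -0.82 for MAP2K6, 0.33 for CYR61 and 0.63 for FAS.

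In 5 of 152 groups of 5 libraries, 1 library lay far from the other 4, where chance gives about 1 in 20 groups of like libraries. Each group here pooled both sets, and many of the genes had been picked for a low p or an extreme r. That rate need not hold for them. OE replicate 4 was that library for IL6 at 52.8 CPM, for CXCL8 at 169 CPM and for SKIL at 74.5 CPM, each above the other OE libraries. It was also that library for MDM2 at 109 CPM, below the other OE libraries. In the second set EV replicate 4 lay on the same side of EV replicate 5 for IL6 (40.2 against 28.9 CPM), CXCL8 (115 against 107 CPM), SKIL (77.0 against 47.0 CPM) and MDM2 (121 against 162 CPM). EV replicate 2 was that library for NENF, a neighbour of ATF3, at 79.8 CPM, above the other EV libraries.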

How the results depend on the processing

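ATF3 kept its direction in each comparison under every alternative run. Its first-set log2 change was -1.59 to -1.42 with 1 library left out, and its second-set change was 0.34 (without OE replicate 4) to 0.73, never past the threshold. Over both sets it was -0.98 to -0.55, and the second-minus-first difference was 1.81 to 2.20, with 1 library left out. The 5 genes called in the first set became 0 to 1578 with 1 library left out, 1578 being without EV replicate 2 and at most 1 without any other library. They became 90 without the count filter, 76 in DESeq2 and 8 with a shared dispersion. List members called there, 2 in all, became 13, 12 and 4 under those settings, and 0 to 41 with 1 library left out. The 0 genes called in the second set became 12 without the filter, 1 in DESeq2 and 0 to 1 with 1 library left out. Over both sets the calls were 23 genes and 5 list members without the filter, and 6 genes and 2 list members in DESeq2. For the difference between sets they were 28 and 5 without the filter, 9 and 3 in DESeq2, and 0 to 8 genes and 0 to 3 list members with 1 library left out. The cause of these shifts was not tested. Of the 10 genes most like ATF3, all 10 stayed with RLE scaling or a smaller prior count, 1 by Spearman's rho, 1 without EV replicates 2 and 3, and 3 to 8 with 1 library left out. Same-numbered libraries deviated together unevenly, so the numbers did not count as pairs, and the calls given above for each list are without a block. The r was -0.09, 0.00 and 0.13 in the first set. It was 0.26 for both numbers of the second set, where 2 libraries per group allow only 1 value. With a replicate block, ATF3 changed by 0.54 in the second set (edgeR unadjusted p = 0.000828, adjusted p = 0.124), by -1.50 in the first and by -0.73 over both. The block called 1 gene and 0 list members in the first set, where KLF10 and TXNIP were lost, 71 genes and 4 list members (CXCL8, GADD45A, JUN and PPP1R15A, all higher in OE) in the second, and 0 genes over both. A set of 2 libraries per group limits how small a change of ATF3 could be called.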
